A study of Mus musculus with 11 samples.

Results

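The genes described here are *Ptbp1*, *Ptbp2*, *Dlg4*, *Srrm4*, *Nova1*, *Nova2*, *Rbfox1*, *Rbfox2*, *Celf1* and *Mbnl2*, a set of 9 splicing regulators and *Dlg4*, a transcript that the PTBP proteins control. They are 10 of the 53801 gene identifiers counted in each library, and they were taken by name. RNA came from neural progenitor cells (NPCs) of E13.5 mouse brains (strain C57BL/6 mixed with 129SV), kept as neurospheres with EGF and bFGF, and ribosomal RNA was removed before sequencing. Every embryo carried loxP sites on both *Smg6* alleles (Flox/Flox). The Ctr group held Flox/Flox; RosaCreER tg/+ cells of 3 embryos without treatment. The Ctr + 4-OHT group held Flox/Flox cells of 4 embryos whose RosaCreER genotype was +/+, that is, without the recombinase, treated with 1 µM 4-hydroxytamoxifen (4-OHT). The *Smg6*-iKO group held Flox/Flox; RosaCreER tg/+ cells of 4 embryos with the same treatment. The labels give 3 days with 4-OHT, whereas the study's text describes a longer culture with it, so the time of exposure is not settled. CreER is expressed from the Rosa26 locus in all cell types and cuts loxP sites once 4-OHT is added, so Ctr + 4-OHT and Ctr differ in both CreER genotype and 4-OHT. Embryos SMH_128, SMH_132 and SMH_133 gave a Ctr and a *Smg6*-iKO culture each (embryos are named as in the labels), whereas every other library came from an embryo of its own.

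PTBP1 is an RNA-binding protein that keeps many neuronal exons out of the mRNA of progenitors and other non-neuronal cells. One exon it keeps out belongs to its paralogue *Ptbp2*: without that exon the reading frame shifts, the mRNA carries a premature stop codon, and nonsense-mediated mRNA decay (NMD) removes it. As neurons form, *Ptbp1* is silenced by the microRNA miR-124 and *Ptbp2* rises, which is the PTBP switch. *Dlg4*, which encodes the postsynaptic scaffold PSD-95, is held low in progenitors by the same kind of exon skipping, under both PTBP proteins. SMG6 is the endonuclease of NMD. SRRM4 promotes the inclusion of neural microexons and of the *Ptbp2* exon, the NOVA and RBFOX proteins act on neuronal exons, and CELF1 and MBNL2 are regulators with often opposed effects during development.

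The exons that couple *Ptbp1*, *Ptbp2* and *Dlg4* to NMD are shown because a count per gene cannot see them. Each is part of a coding transcript and absent from a transcript annotated as an NMD substrate in GENCODE M21 (GRCm38), and none has a length that is a multiple of 3 bases. *Ptbp1* exon 9 of 13 (transcript Ptbp1-202) lies at chr10:79862014-79862047 on the plus strand and has 34 bases. *Ptbp2* exon 10 of 14 (Ptbp2-201) lies at chr3:119724612-119724645 on the minus strand and also has 34 bases. The paralogous exons share 26 of 34 bases (76.5%), and capitals mark the 8 that differ.
Ptbp1 exon 9: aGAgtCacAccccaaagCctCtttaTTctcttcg
Ptbp2 exon 10: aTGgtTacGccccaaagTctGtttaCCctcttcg
*Dlg4* exon 18 of 20 (Dlg4-203) lies at chr11:70043658-70043767 on the plus strand and has 110 bases, with no capitals because it was compared with no other exon.
Dlg4 exon 18: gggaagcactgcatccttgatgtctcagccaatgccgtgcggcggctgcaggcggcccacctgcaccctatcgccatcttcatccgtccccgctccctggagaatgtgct
Transcripts annotated as NMD substrates were listed for 4 of the 10 genes, 3 for *Ptbp1*, 2 for *Ptbp2*, and 1 each for *Dlg4* and *Srrm4*. Of 14106 protein-coding genes tested, 27.4% had such a transcript. The values below are totals over all transcripts of a gene, so an mRNA that includes one of these exons and one that skips it were counted together.

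Libraries held from 26418249 to 33756875 counted reads. Levels are given in CPM, counts scaled to a common library total after TMM normalisation, and differences as log2 fold changes from edgeR's quasi-likelihood test, with p-values adjusted over all genes tested and 0.05 as the threshold. The summed level of 8 progenitor markers was 6110 to 6570 CPM in Ctr, 5510 to 6740 CPM in Ctr + 4-OHT and 5180 to 6060 CPM in *Smg6*-iKO. These markers differed widely, with group means of 2070 to 2240 CPM for *Vim*, 211 to 293 CPM for *Sox2* and 31.8 to 77.4 CPM for *Hes5*. The summed level of 9 neuron markers was 1980 to 2220 CPM in Ctr, 1840 to 3030 CPM in Ctr + 4-OHT and 2360 to 2770 CPM in *Smg6*-iKO. The 5 astrocyte markers summed to 553 to 696 CPM and the 5 oligodendrocyte-lineage markers to 159 to 254 CPM over the 11 libraries. The 4 microglia markers together stayed at or under 1.44 CPM, and the 5 vascular and meningeal markers ranged from 21.2 to 144 CPM, with both ends in treated groups. *Smg6*, the targeted gene, ranged from 62.3 to 71.9 CPM in *Smg6*-iKO, from 66.5 to 72.3 CPM in Ctr + 4-OHT and from 69.4 to 79.4 CPM in Ctr. Its total passed the test against Ctr with the embryo as a block (log2 fold change -0.15, adjusted p = 0.043 from edgeR) and not without it (-0.17, adjusted p = 0.148). It did not pass against Ctr + 4-OHT (-0.06, interval -0.21 to 0.09, adjusted p = 0.703 from edgeR), and a gene total does not show whether the floxed part was lost.

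All 10 genes were expressed in every library, the shallowest count being 366 reads, for *Srrm4* in 1 Ctr + 4-OHT library. To compare genes, CPM was divided by the length of all annotated exons. In Ctr the highest level per length was that of *Ptbp1*, 41.1 ± 2.63 CPM per kb (SD, n = 3), followed by *Dlg4* at 38.8 ± 3.89 and *Rbfox2* at 37.6 ± 2.72 CPM per kb. The ranges of these 3 genes overlapped, and all stood clear of the next gene. *Celf1* at 27.9 ± 0.297 and *Ptbp2* at 26.2 ± 1.52 CPM per kb came next and overlapped with each other. *Mbnl2* (10.4 ± 1.06), *Rbfox1* (7.11 ± 1.1) and *Nova1* (3.21 ± 0.475 CPM per kb) each stood clear of their neighbours, and *Srrm4* (2.19 ± 0.287) and *Nova2* (2.12 ± 0.298 CPM per kb) were lowest and overlapped. Thus these progenitor cultures held *Ptbp1*, *Ptbp2* and *Dlg4* RNA together, and little *Srrm4*, *Nova1* and *Nova2* RNA per length. In Ctr + 4-OHT and in *Smg6*-iKO the mean of *Rbfox2* came first, then *Dlg4*, then *Ptbp1*, and ranks 4 to 10 were the same genes in the same order as in Ctr. In *Smg6*-iKO *Ptbp1* stood at 35.5 ± 1.54 CPM per kb (SD, n = 4), its range clear of *Dlg4* above (41.7 ± 2.7) and *Celf1* below (27.5 ± 0.837 CPM per kb).

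**Figure D1:**
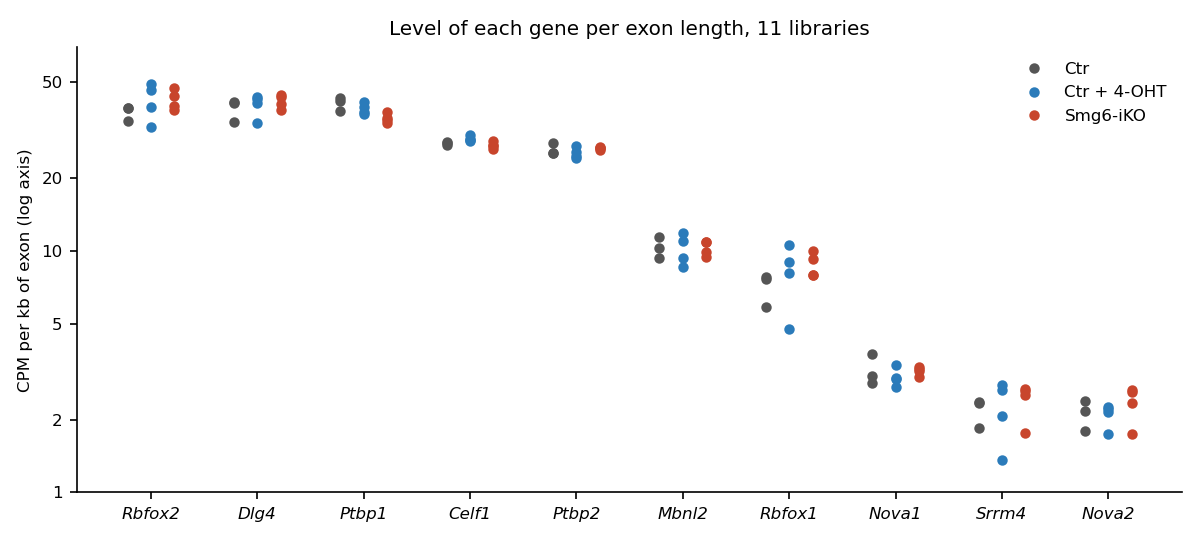
Level of each of the 10 genes in CPM per kb of annotated exon (log axis), with 1 point per library and the 3 groups in colour. *Rbfox2*, *Dlg4* and *Ptbp1* lead in all groups, and *Srrm4* and *Nova2* are lowest, between 1.36 and 2.8 CPM per kb.

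Between *Smg6*-iKO and Ctr + 4-OHT, both treated with 4-OHT but different in CreER genotype and so in whether *Smg6* could be deleted, none of the 10 genes passed the test. The estimates ran from -0.12 for *Ptbp1* to 0.17 for *Nova2*, 8 of 10 were above 0, and their median of 0.067 stood beside a median of 0.012 over all genes tested. Over all 17558 genes tested 1.17% passed, so a count of 0 among 10 is near the background. An unadjusted p under 0.05 was also reached by 0 of the 10 genes, against 16.7% of all genes. In none of the 10 did the *Smg6*-iKO libraries lie wholly above or below the Ctr + 4-OHT libraries, which was so for 11% of all genes.

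The switch genes themselves showed the following values in this comparison. *Ptbp1*, the progenitor paralogue, was at 165, 169, 161 and 178 CPM in the *Smg6*-iKO cultures of embryos SMH_127, SMH_128, SMH_132 and SMH_133. In Ctr + 4-OHT it was at 179, 188, 197 and 174 CPM in embryos SMH_125, SMH_126, SMH_129 and SMH_131. Only the *Smg6*-iKO culture of embryo SMH_133 reached into the Ctr + 4-OHT range, and the log2 fold change was -0.12 (standard error 0.0566, 95% interval -0.25 to 0, adjusted p = 0.307 from edgeR). *Ptbp2*, the neuronal paralogue, was at 245, 246, 247 and 240 CPM in *Smg6*-iKO and at 250, 226, 224 and 235 CPM in Ctr + 4-OHT, in the same order of embryos. The *Smg6*-iKO values of *Ptbp2* lay close together and inside the wider Ctr + 4-OHT range, with a log2 fold change of 0.07 (interval -0.04 to 0.19, adjusted p = 0.501 from edgeR). *Dlg4* was at 216, 191, 202 and 221 CPM in *Smg6*-iKO and at 217, 212, 170 and 205 CPM in Ctr + 4-OHT, again overlapping, with a log2 fold change of 0.06 (interval -0.12 to 0.24, adjusted p = 0.771 from edgeR). The upper ends of these intervals correspond to at most a 1.14-fold higher total of *Ptbp2* and a 1.18-fold higher total of *Dlg4*.

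The other 7 genes did not pass against Ctr + 4-OHT either, and their estimates ran from -0.08 to 0.17. *Srrm4* had the widest interval, -0.34 to 0.60 around 0.13 (adjusted p = 0.81 from edgeR), and *Celf1* and *Ptbp2* had the narrowest, reaching 1.14-fold at most. *Rbfox1* was estimated at 0.13 and its paralogue *Rbfox2* at 0.03. *Nova1*, *Nova2* and *Mbnl2* were at 0.10, 0.17 and 0.02, and *Celf1* was at -0.08.

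**Figure D2:**
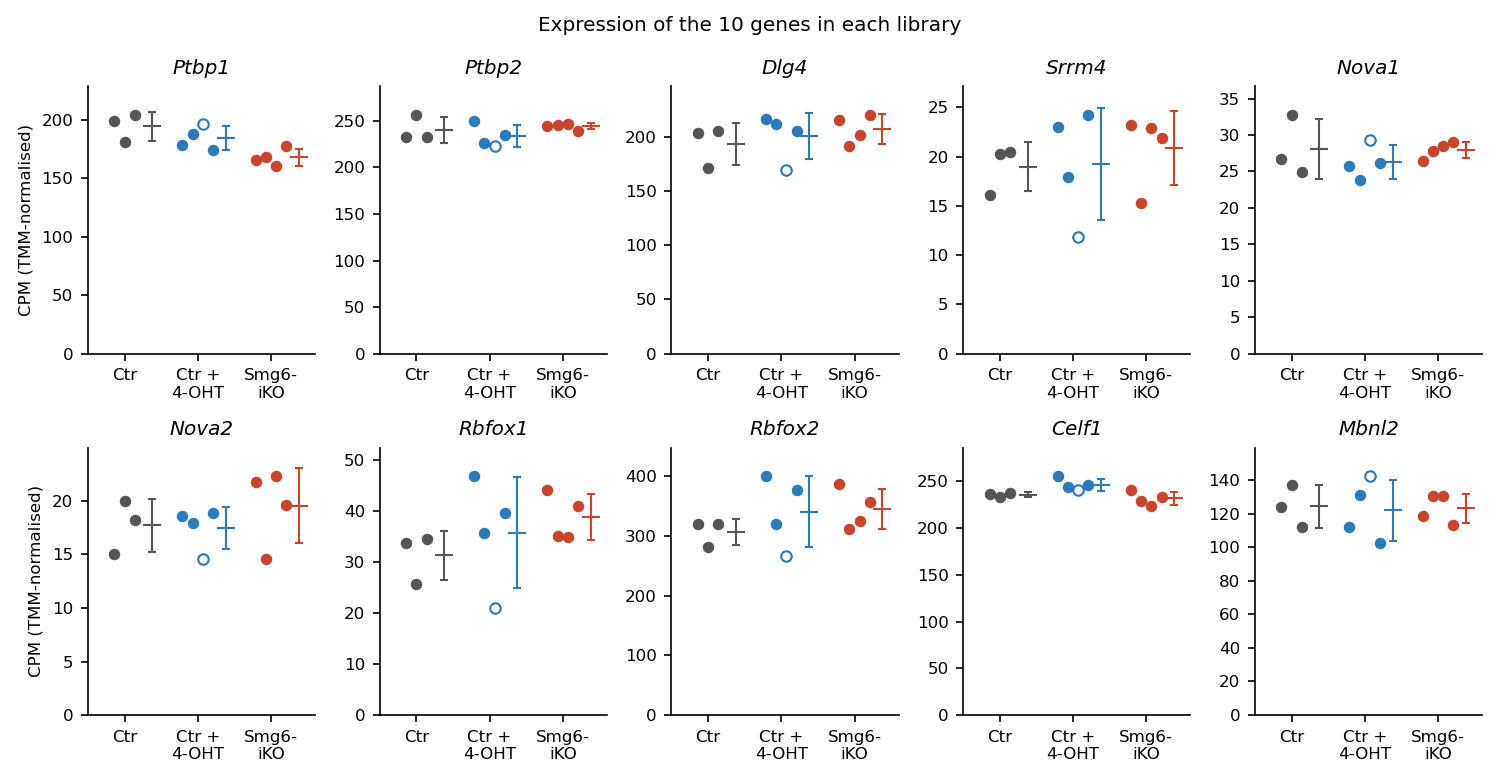
CPM of each gene in the 11 libraries (y axes from 0), with 1 point per embryo in order of embryo number, and bars for the mean and SD of each group (n = 3, 4 and 4). The open point is embryo SMH_129 of Ctr + 4-OHT, the lowest of its group in 7 genes and the highest in *Ptbp1*, *Nova1* and *Mbnl2*.

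Embryo SMH_129 set much of the spread in Ctr + 4-OHT. It was the lowest or the highest library of its group for all 10 genes, against 58.6% of all genes tested, being lowest for *Ptbp2*, *Dlg4*, *Srrm4*, *Nova2*, *Rbfox1*, *Rbfox2* and *Celf1* and highest for *Ptbp1*, *Nova1* and *Mbnl2*. *Rbfox1* was at 20.9 CPM in this library, and at 46.8, 35.6 and 39.5 CPM in embryos SMH_125, SMH_126 and SMH_131. *Srrm4* was at 11.8 CPM there and at 23, 17.9 and 24.3 CPM in the same others. *Rbfox1* thus spanned a 2.23-fold and *Srrm4* a 2.05-fold range over the 11 libraries, the widest of the 10, and for both genes the lowest and the highest library belonged to Ctr + 4-OHT. Embryo SMH_129 also had the lowest neuron marker sum of its group, 1840 CPM against 2260 to 3030 CPM in the others, the highest progenitor marker sum, 6740 CPM, and the highest oligodendrocyte-lineage marker sum, 254 CPM against 174 to 199 CPM. The part of these cell type markers in the gene values was not tested. Without embryo SMH_129 the estimates of *Dlg4*, *Srrm4*, *Rbfox1* and *Rbfox2* for *Smg6*-iKO against Ctr + 4-OHT turned to -0.02, -0.05, -0.06 and -0.07. The adjusted p of these genes from edgeR was at least 0.506 whichever library was left out.

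Between *Smg6*-iKO and Ctr, where 3 embryos contributed to both groups, again 0 of the 10 genes passed without a block, while 9.25% of 17974 genes did. An unadjusted p under 0.05 was reached by *Ptbp1* and *Rbfox1*, 2 of the 10 genes, and by 26.9% of all genes. These were also the 2 genes whose groups did not overlap (23.3% of all genes did not). DESeq2's test on all libraries called *Ptbp1* alone of the 10 (log2 fold change -0.22, adjusted p = 0.0208), and 11.7% of all genes with an adjusted p. The median of the 10 estimates was 0.062, against 0.005 for all genes.

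*Ptbp1* (ENSMUSG00000006498, chromosome 10 from 79854427 to 79864771 in GRCm38) was at 199, 181 and 205 CPM in the Ctr cultures of embryos SMH_128, SMH_132 and SMH_133, all above the 161 to 178 CPM of *Smg6*-iKO. The log2 fold change was -0.21 (standard error 0.0607, interval -0.35 to -0.08, adjusted p = 0.0532 from edgeR), just outside the threshold. *Ptbp1* passed with the embryo as a block, at -0.20 (standard error 0.0475, adjusted p = 0.00542 from edgeR), and in all 3 embryos the treated culture was lower, by 0.17 to 0.24 on the log2 scale. In bulk RNA of a mixed culture, fewer cells that express a gene and less of its RNA per cell cannot be told apart. *Ptbp1* also passed without a block when the Ctr culture of embryo SMH_132 was left out (-0.27, adjusted p = 0.0451 from edgeR). With the block it no longer passed when both cultures of embryo SMH_133 were left out (-0.20, adjusted p = 0.0904 from edgeR). Over all fits with a library or an embryo left out, its adjusted p from edgeR ran from 0.000896 to 0.16.

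*Rbfox1* (ENSMUSG00000008658, chromosome 16 from 5885355 to 7411526), an RBFOX gene of differentiated neurons and muscle, was at 33.7, 25.7 and 34.4 CPM in Ctr and at 44, 35, 34.9 and 40.9 CPM in *Smg6*-iKO. Every *Smg6*-iKO value lay above every Ctr value, the nearest being 34.9 and 34.4 CPM. The log2 fold change was 0.31 (standard error 0.114, interval 0.06 to 0.56, adjusted p = 0.109 from edgeR). With the embryo as a block *Rbfox1* passed, at 0.25 (standard error 0.0703, adjusted p = 0.0178 from edgeR), and it was higher in all 3 embryos, by 0.05 in embryo SMH_128, 0.44 in embryo SMH_132 and 0.25 in embryo SMH_133. This call was lost without embryo SMH_132 (0.15, adjusted p = 0.205 from edgeR) and without embryo SMH_133 (0.26, adjusted p = 0.0836 from edgeR). The blocked fit thus called 2 of the 10 genes, while it called 21.4% of all genes tested, so the share among the 10 was near the background.

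The cell type markers moved in the same comparison. All 3 Ctr libraries had a lower neuron marker sum (1980 to 2220 CPM) than all 4 *Smg6*-iKO libraries (2360 to 2770 CPM) and a higher progenitor marker sum (6110 to 6570 against 5180 to 6060 CPM). Of 9 neuron markers 3 were called higher in *Smg6*-iKO (*Nefl*, *Gap43* and *Ina*), or 8 with the block, and of 8 progenitor markers 4 were called lower (*Sox2*, *Hes5*, *Fabp7* and *Pax6*), or 5 with the block. Of all genes 4.27% were called higher, or 10.3% with the block, and 4.98% lower, or 11.2% with the block. The median log2 fold change of the 9 neuron markers was 0.35 for *Smg6*-iKO against Ctr, 0.30 for Ctr + 4-OHT against Ctr, which shares the Ctr libraries, and 0.10 for *Smg6*-iKO against Ctr + 4-OHT. That of the 8 progenitor markers was -0.32, -0.16 and -0.16 in the same order, beside medians of 0.005, 0.005 and 0.012 over all genes. In the comparisons that involve Ctr + 4-OHT none of these markers was called by edgeR, and an unadjusted p under 0.05 was reached by 0 neuron and 2 progenitor markers for Ctr + 4-OHT against Ctr and by 0 and 3 for *Smg6*-iKO against Ctr + 4-OHT. The part of this shift in the *Ptbp1* and *Rbfox1* values was not tested.

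**Figure D3:**
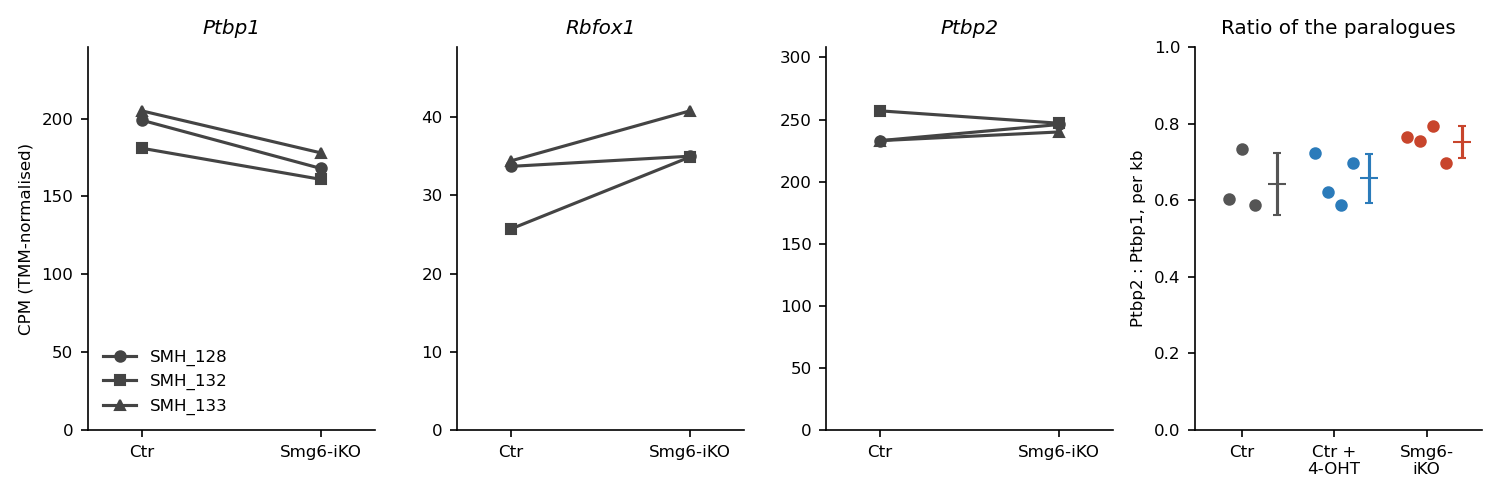
Left, CPM of *Ptbp1*, *Rbfox1* and *Ptbp2* in the Ctr and *Smg6*-iKO cultures of the same embryo, joined by lines. Right, the ratio of *Ptbp2* to *Ptbp1* level per kb in each library, with the mean and SD of each group (n = 3, 4 and 4). *Ptbp1* falls and *Rbfox1* rises within each embryo, *Ptbp2* has no common direction, and the ratios of the groups overlap.

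*Ptbp2* did not follow *Ptbp1* in the opposite direction. It was at 233, 257 and 233 CPM in Ctr, a range that held all 4 *Smg6*-iKO values, and its log2 fold change was 0.02 (interval -0.10 to 0.14, adjusted p = 0.839 from edgeR). The blocked estimate was also 0.02 (edgeR adjusted p = 0.797). Within embryos it was higher in 2 and lower in 1, by -0.06 to 0.08 on the log2 scale. The ratio of *Ptbp2* to *Ptbp1* level per length was 0.604, 0.734 and 0.588 in Ctr (mean 0.642 ± 0.080, SD, n = 3). In Ctr + 4-OHT it was 0.724, 0.622, 0.587 and 0.697 (0.657 ± 0.064, SD, n = 4). In *Smg6*-iKO it was 0.765, 0.755, 0.795 and 0.696 (0.753 ± 0.041, SD, n = 4). The *Smg6*-iKO ratio of embryo SMH_133 lay below the highest ratio of both control groups, and within each paired embryo the ratio was higher in the treated culture. The ratio was computed after the values of both genes were known and was not tested.

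*Dlg4* was at 204, 171 and 206 CPM in Ctr, overlapping with *Smg6*-iKO, with a log2 fold change of 0.10 (interval -0.07 to 0.27, adjusted p = 0.433 from edgeR). In embryo SMH_128 it was lower in the treated culture and in embryos SMH_132 and SMH_133 higher, by -0.09, 0.24 and 0.10 on the log2 scale. With the block the estimate was 0.08 (interval -0.04 to 0.20, adjusted p = 0.327 from edgeR), an upper end of 1.15-fold. Without embryo SMH_128 the blocked fit called *Dlg4* (0.17, adjusted p = 0.00519 from edgeR) and *Rbfox2* (0.18, adjusted p = 0.00501 from edgeR) higher. *Rbfox2*, the widely expressed RBFOX gene, was at 319, 281 and 319 CPM in Ctr and at 387, 312, 325 and 357 CPM in *Smg6*-iKO, which overlapped, and with all libraries it did not pass (0.17, adjusted p = 0.2, or 0.11 and 0.147 with the block, from edgeR).

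The neural regulators *Srrm4*, *Nova1* and *Nova2* gave estimates of 0.14, -0.01 and 0.14 against Ctr, with intervals reaching 1.37-fold, 1.16-fold and 1.37-fold. *Srrm4* was at 16.1, 20.3 and 20.5 CPM in Ctr and at 23.2, 15.3, 22.9 and 21.9 CPM in *Smg6*-iKO. The low values of both groups belonged to embryo SMH_128. *Celf1* and *Mbnl2* were at -0.02 and -0.01. *Celf1* had the smallest spread of the 10, a 1.14-fold range over the 11 libraries, and was lower in the treated culture of all 3 embryos by 0.03 to 0.06 on the log2 scale, a difference that did not pass with the block (-0.04, adjusted p = 0.57 from edgeR).

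**Figure D4:**
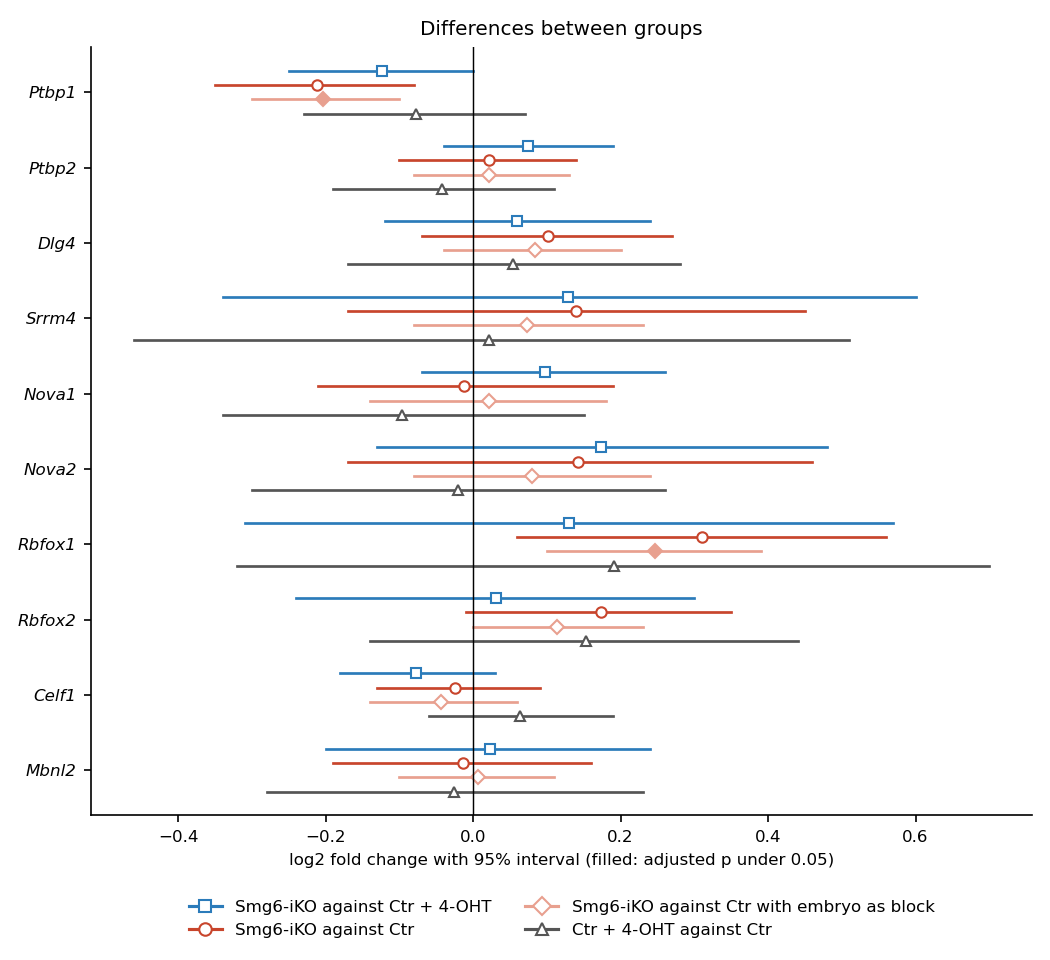
Log2 fold change of each gene with its 95% interval in the 3 comparisons and, for *Smg6*-iKO against Ctr, also with the embryo as a block. Filled symbols passed an adjusted p of 0.05, and only the blocked estimates of *Ptbp1* (-0.20) and *Rbfox1* (0.25) are filled.

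Between the control groups, Ctr + 4-OHT and Ctr, 0 of the 10 genes passed and 0 had an unadjusted p under 0.05, by edgeR. The background was 0.221% of 17665 genes, or 8.28% by unadjusted p. The median of the 10 estimates was 0, beside 0.005 for all genes. *Ptbp1* was estimated at -0.08 (interval -0.23 to 0.07) and *Rbfox1* at 0.19 (interval -0.32 to 0.70), the same signs as for *Smg6*-iKO against Ctr, which shares the Ctr libraries. *Celf1* was the only gene whose groups did not overlap: it was at 256, 244, 240 and 246 CPM in Ctr + 4-OHT and at 237, 233 and 238 CPM in Ctr. Such a separation occurred in 8.71% of all genes, and the log2 fold change of *Celf1* was 0.06 (adjusted p = 0.781 from edgeR).

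Of 17 further neural splicing regulators (the remaining PTBP, SRRM, RBFOX, CELF and MBNL genes, the neuronal ELAVL genes, the KHDRBS genes and *Qk*) none passed in any comparison without the block. By unadjusted p under 0.05 there were 1 against Ctr + 4-OHT (16.7% of all genes), 9 against Ctr (26.9% of all genes) and 0 between the control groups (8.28% of all genes). With the block 7 of 17 were called against Ctr, beside 21.4% of all genes. *Celf3* (0.32), *Celf4* (0.26), *Celf5* (0.30) and *Celf6* (0.29), which are CELF paralogues found mostly in the nervous system, were higher, and so was *Khdrbs2* (0.26), a neuronal regulator of the Sam68 family. *Ptbp3*, the third PTBP paralogue, was lower by -0.24 (adjusted p = 0.00454 from edgeR). *Qk*, a regulator of progenitors and glia and the highest of the 17 per length, was lower by -0.22 (adjusted p = 0.00479 from edgeR). The count of 7 depended on the embryos: the blocked fit called 12 of 17 without SMH_128, 0 without SMH_132 and 6 without SMH_133. The same fits called 28.1%, 14.6% and 9.62% of all genes. The median of the 17 was 0.053 with the block, beside 0.004 for all genes.

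Of 5 other transcripts that PTBP proteins are known to repress (*Gabbr1*, *Vamp2*, *Sv2a*, *Kif5a* and *Flna*) 1 passed against Ctr, where 9.25% of all genes did, and 0 in the other comparisons without the block. This was *Kif5a*, which encodes a neuronal kinesin, with a mean of 149 CPM (SD 14.6, n = 4) in *Smg6*-iKO against 121 CPM (SD 10.9, n = 3) in Ctr (log2 fold change 0.31, adjusted p = 0.0479, or 0.28 and 0.00196 with the block, from edgeR). The call without the block was lost when any library but the *Smg6*-iKO culture of embryo SMH_128 was left out, and under 4 of the other alternatives. Against Ctr + 4-OHT the estimates were 0.11 for *Gabbr1*, 0.25 for *Vamp2*, 0.14 for *Sv2a*, 0.14 for *Kif5a* and 0.02 for *Flna*, and none passed.

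Among 7 PTBP cofactors and upstream regulators, 6 could be tested. *Raver1*, a PTBP1 corepressor, was listed at 0 reads in every library, and 99.7% of its exon bases are shared with an overlapping gene on the same strand, where reads were not counted. None of the 10 main genes had more than 3.54% of its exon bases shared in this way. Without the block none of the 6 passed. With it 2 passed, beside 21.4% of all genes. *Rest*, a repressor of neuronal genes and of miR-124 in progenitors, was lower against Ctr by -0.17 (adjusted p = 0.0169 from edgeR). *Mir124a-1hg*, a host transcript of miR-124, was higher by 0.30 (adjusted p = 0.0196 from edgeR), and *Mir124-2hg*, another host, was at 0.15 (adjusted p = 0.0832 from edgeR). Neither *Rest* nor *Mir124a-1hg* was called when SMH_132 or SMH_133 was left out of the blocked fit.

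Of 9 relatives of *Dlg4* and other postsynaptic density genes, none passed against Ctr + 4-OHT, and 3 were called higher against Ctr, with and without the block. Over all genes 1.17% passed against Ctr + 4-OHT, and 4.27% were called higher against Ctr, or 10.3% with the block. *Dlg2*, which encodes PSD-93, had a mean of 48 CPM (SD 3.74, n = 4) in *Smg6*-iKO against 36.2 CPM (SD 1.97, n = 3) in Ctr (log2 fold change 0.41, adjusted p = 0.00851 from edgeR). *Dlgap1*, a PSD-95 binding partner, was at 29.6 ± 0.447 CPM (SD, n = 4) against 24.7 ± 1.7 CPM (SD, n = 3), with a log2 fold change of 0.26 (adjusted p = 0.0298 from edgeR). *Dlg3*, which encodes SAP102, was at 0.21 with an adjusted p that rounds to 0.05. Without the Ctr culture of embryo SMH_132 none of the 9 was called without the block, beside 3.15% of all genes. The blocked fit called 6 without SMH_128 (28.1% of all genes), 1 without SMH_132 (14.6%) and 1 without SMH_133 (9.62%). In Ctr + 4-OHT the mean of *Dlg2* was 47.5 CPM (SD 12.9, n = 4), with a log2 fold change of 0.03 for *Smg6*-iKO against that group.

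**Figure D5:**
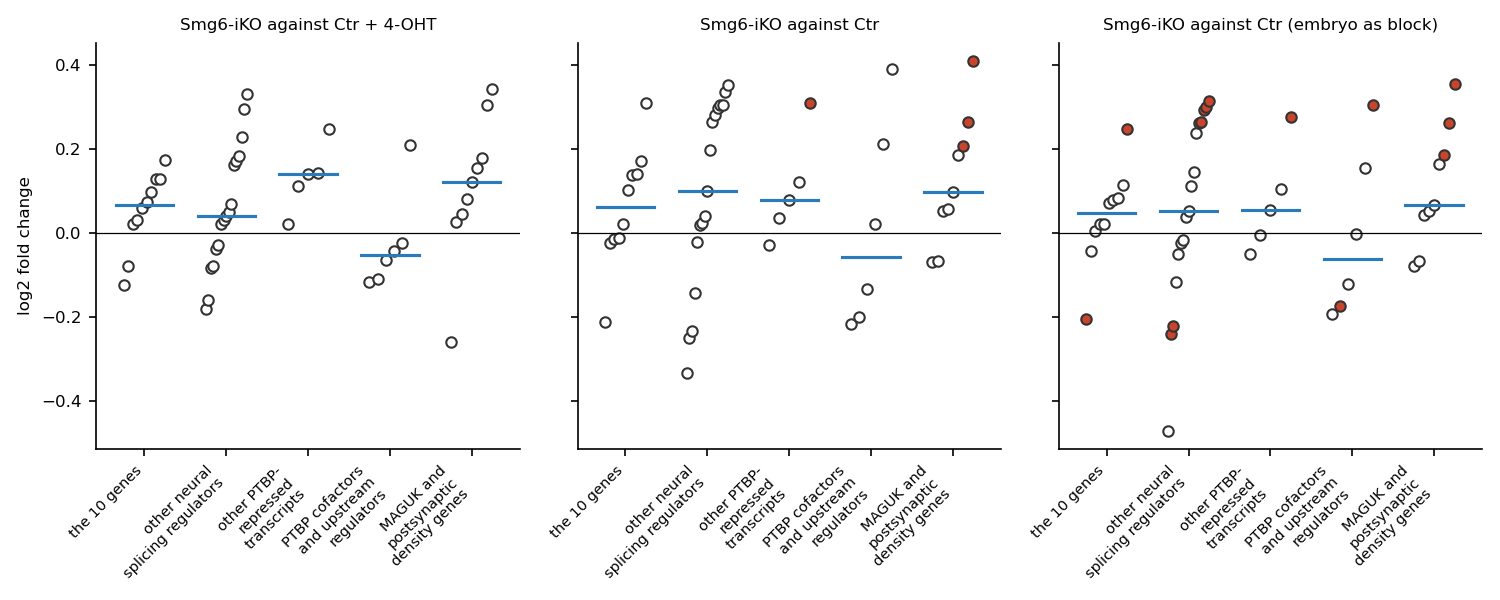
Log2 fold changes of the 10 genes and of the 4 related gene lists in *Smg6*-iKO against Ctr + 4-OHT, against Ctr, and against Ctr with the embryo as a block. Each point is a gene, filled points passed an adjusted p of 0.05, and blue lines are medians. No point is filled against Ctr + 4-OHT, 4 are against Ctr, and 15 with the block.

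The genes whose pattern over the 11 libraries was most like that of *Ptbp1*, by the root-mean-square difference of mean-centred log2 CPM over 18122 other genes, were *Rpl7a* (0.040), *Ppp2r5d* (0.043) and *Cfl1* (0.044). For *Rbfox1* they were *Ckmt1*, *Rell2* and *Chd3*, each at 0.079. *Chd3* ranged from 276 to 535 CPM over the libraries. These are descriptions of likeness over 11 libraries, some of which share an embryo.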

How the data were processed

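The authors deposited raw counts per gene. Reads of 50 bases from stranded total RNA libraries had been mapped to GRCm38 with STAR 2.5.4b and counted with featureCounts 1.5.0 (-s 2) on Ensembl release 92, leaving out reads that hit several positions or several genes; bcl2fastq 1.8.4 is named in the submitters' processing notes. Groups and embryo numbers come from the labels, and symbols, positions and transcripts from GENCODE M21.

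Fits used edgeR 4.0.16 in R 4.3.3 on the libraries of the groups compared (filterByExpr, TMM, quasi-likelihood test, Benjamini-Hochberg adjustment over all genes tested). Standard errors come from the log2 fold change and the F value of the test. CPM used TMM over the 11 libraries. The embryo as a block was fitted for *Smg6*-iKO against Ctr, where same-embryo libraries deviated together (r from 0.328 to 0.425) and others less (-0.265 to 0.095). Alternatives were DESeq2 size factors, no filter, a single fit of all libraries, a gene length correction (loess span 0.3), DESeq2 1.42.0 and each library left out. The fits without a block were also run on simulated data in which 200 genes changed by known folds. That simulation used a single dispersion for all genes and no embryo effect, so it does not show how the fits do on the real spread. Replicates are cultures of separate embryos, and counts carry counting error as well.

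The 10 genes, the lists and the tests were chosen with earlier results of these data known. All 10 genes were named in each comparison; from the lists, genes with an adjusted p under 0.05 and a few of the highest per length; and, for genes that passed, the 3 most alike. Of the transcripts listed as repressed by PTBP proteins, 2 are not reported here. Figures were drawn with matplotlib 3.10.9.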

Additional observations from a re-analysis of the deposited data

Results flagged for a closer look

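*Srrm4* in the *Smg6*-iKO culture of embryo SMH_128 stood apart from its group, at 15.3 CPM against 21.9 to 23.2 CPM in the other 3 cultures. Its gap to the nearest of them was 0.834 of the group's range, above the 95% critical value of Dixon's test for 4 samples. Such a test marks about 1 in 20 groups by chance, and both groups of 4 were tested for each of the 10 genes. The Ctr culture of the same embryo had the lowest *Srrm4* of its group, at 16.1 CPM. Without the *Smg6*-iKO culture of embryo SMH_128 no gene of the 10 passed against Ctr, beside 14.1% of 17908 genes tested. The *Srrm4* estimate against Ctr was then 0.26 (adjusted p = 0.101 from edgeR).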

How the results depend on the processing

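For *Smg6*-iKO against Ctr + 4-OHT and for Ctr + 4-OHT against Ctr, 0 of the 10 genes passed under every alternative run. The main fits called 1.17% and 0.221% of all genes there. Counts over all genes are given below for some of the alternatives and not for the others. The steady 0 is therefore not read as a result about the 10 genes. For *Smg6*-iKO against Ctr the count of 0 became 2 with no filter on low counts (*Ptbp1* and *Rbfox1*), 1 with the gene length correction, 1 with DESeq2's test, 2 with the embryo as a block and 1 with the block and the length correction, which called 7.57%, 10.9%, 11.7%, 21.4% and 22.7% of all genes in this order. It ranged from 0 to 1 with each library left out, beside 3.15% to 14.1% of all genes. The blocked fit without an embryo, added after the data were seen, gave 4 without embryo SMH_128, 1 without embryo SMH_132 and 0 without embryo SMH_133, beside 28.1%, 14.6% and 9.62% of all genes. The adjusted p of *Ptbp1* against Ctr ran from 0.00208 to 0.072 over the alternatives that kept all libraries, and that of *Rbfox1* from 0.00247 to 0.407. The block changed no other call among the 10.

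Some estimates that did not pass changed sign, and the cause was not tested. With the length correction, *Rbfox2* (-0.021) and *Mbnl2* (-0.043) did so against Ctr + 4-OHT and *Ptbp2* (-0.021) against Ctr. With the block, *Nova1* (0.021) and *Mbnl2* (0.006) did so, with block and length correction *Ptbp2* (-0.009), and in the blocked fit *Ptbp2* (-0.009) without embryo SMH_128, *Nova1* (0.141) and *Mbnl2* (0.045) without embryo SMH_132, and *Mbnl2* (0.011) without embryo SMH_133. With each library left out, estimates against Ctr + 4-OHT ranged from -0.019 to 0.091 for *Dlg4*, -0.052 to 0.255 for *Srrm4*, -0.062 to 0.278 for *Rbfox1*, -0.075 to 0.108 for *Rbfox2* and -0.057 to 0.101 for *Mbnl2*. Against Ctr they ranged from -0.005 to 0.06 for *Ptbp2*, -0.095 to 0.104 for *Nova1* and -0.088 to 0.052 for *Mbnl2*. For Ctr + 4-OHT against Ctr they ranged from -0.07 to 0.007 for *Ptbp2*, -0.027 to 0.127 for *Dlg4*, -0.103 to 0.198 for *Srrm4*, -0.171 to 0.029 for *Nova1*, -0.126 to 0.075 for *Nova2* and -0.109 to 0.055 for *Mbnl2*.

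The counts over all genes in *Smg6*-iKO against Ctr + 4-OHT, *Smg6*-iKO against Ctr and Ctr + 4-OHT against Ctr (206, 1663 and 39) were 418, 2714 and 198 with no filter, 484, 796 and 60 in a single fit, and 1131, 1639 and 238 with DESeq2. Counts are gene totals, so included and skipped exons of *Ptbp1*, *Ptbp2* and *Dlg4* were not resolved.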
